A study of Chrysanthemum x morifolium with 6 samples.

Results

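The most abundant transcripts of the unstressed chrysanthemum leaf were taken as the features whose mean over the 3 control libraries was at least 1000 FPKM, that is, fragments mapped to the feature divided by its length in kilobases and by the size of the library. Of 365669 features in the deposited table, 167 met this rule. The control libraries alone chose them, so their control levels are a description. Leaves of the cultivar Jinba (Chrysanthemum x morifolium), labelled 1-month-old, were sequenced as 6 short-read RNA libraries. Tissue-cultured plants spent 30 days on medium (light for 16 h a day, 25 °C in the light and 22 °C in the dark) and 5 days in pots. Control leaves (3 libraries) came from plants kept in normal conditions. Cold leaves (3 libraries) were taken after 24 h of chilling at 4 °C plus 4 h below zero at -4 °C, and these exposures cannot be told apart. Per the series' design text, each treatment was a mixture of leaves from 3 replicates and 2 samples in all were sequenced, whereas the labels list 6 libraries. Whether the 3 libraries of a condition came from separate plants is therefore not settled by the labels, and p-values cover only the spread among the sequenced libraries, a spread that may be technical.

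In a green leaf a small set of messenger RNAs makes up a large part of the transcript pool. In flowering plants this set typically includes the transcripts of the Rubisco small subunit, which belongs to the enzyme that fixes carbon dioxide, and of the chlorophyll a/b-binding proteins that harvest light. Transcripts of photosynthesis are known to respond to cold in several plant species. The deposited table pairs no feature with a gene name, sequence, length or position, so no feature here is assigned to any of these genes, and a check of the leaf label against marker genes could not be made. FPKM is scaled by feature length and by library, so levels can be compared between features, but each value is relative to the other transcripts of its library. In such bulk samples fewer cells of a type and less RNA per cell cannot be told apart. Near-identical gene copies can split or share reads, which makes each single-feature value uncertain in that respect.

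The FPKM totals were alike, at 2615325 to 2648484 for controls and 2577065 to 2589509 for cold leaves. With FPKM alone the absolute depth is unknown. The steps between low values gave relative depths of 0.74 and 0.87 for controls 2 and 3 and 0.85 to 0.92 for the cold libraries, with control 1 set to 1. Over the 167 features the median difference was 3.85% to 6.05% within pairs of controls and 3.08% to 3.20% within pairs of cold libraries. For mixed pairs it was 38.9% to 42.1%.

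The 167 features held about 25% of the FPKM total of the control leaf and less of it after cold. Their sum was 24.7%, 24.9% and 25.3% of the FPKM total in controls 1 to 3 and 17.4%, 17.2% and 17.0% in cold 1 to 3. Every cold library lay below every control library. The mean share was 25.0% ± 0.344 in control and 17.2% ± 0.164 in cold (SD, n = 3 each), which is 68.9% of the control share. Because the controls chose the list, no test was made of this share. For a reading in libraries that the choice did not use, features were chosen on 1 control library and their share was read in the other 2. The share was then 25.0% to 25.1% in the controls not used for the choice, and 17.1% to 17.3% in cold leaves. Those controls are of the same condition, so the choice still rested on control leaves. Levels themselves ranged from 1006 to 25616 FPKM in the control mean, with a median of 2137, and from 29.5 to 17525 FPKM in the cold mean, with a median of 1478.

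**Figure D1:**
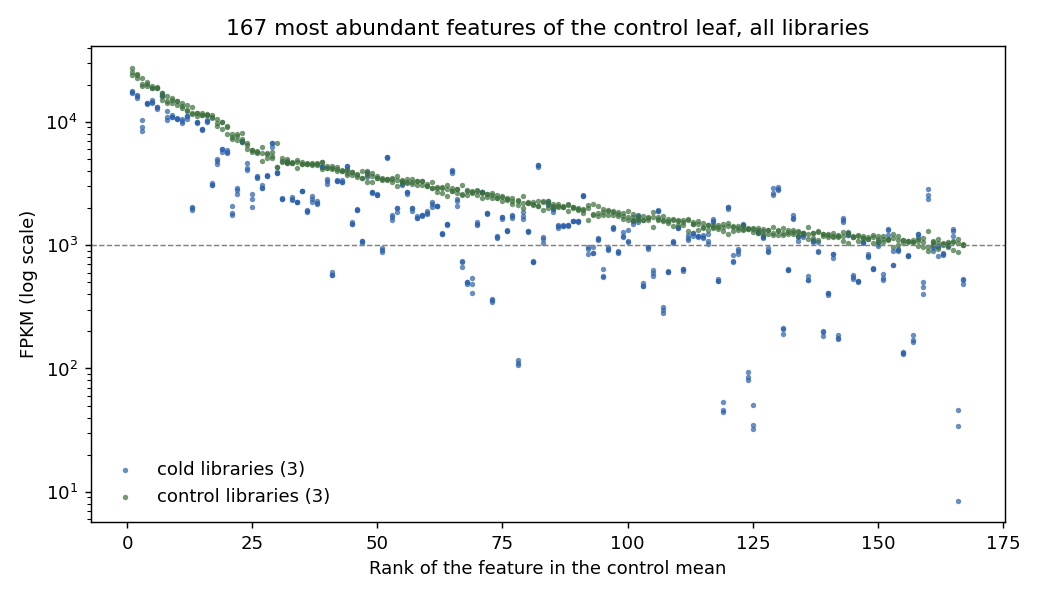
FPKM (log axis) of each of the 167 features in each library, ordered by rank in the control mean; green points are the 3 control libraries, blue points the 3 cold libraries, and the dashed line is the 1000 FPKM limit. Most blue points lie below the green ones at all ranks, and 4 features lie under 100 FPKM in the cold mean, the lowest at 29.5 FPKM.

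Most of the 167 were lower in cold leaves. With limma on log2(FPKM + 1) over all 153984 features with a mean of at least 1 FPKM, and an adjusted p under 0.05, 131 of the 167 were lower, 17 were higher and 19 did not pass. Among all tested features 35.6% were called, 19.8% as lower and 15.8% as higher. All 167 passed the filter on low values. The choice of features on high control values favours falls in this contrast, so the count is a description. When the features were chosen on 1 control library and cold was compared with the other 2 controls, 129 of 164 (chosen on control 1), 131 of 171 (control 2) and 126 of 172 (control 3) were lower, against 14.7%, 15.1% and 15.4% of all features tested in those fits. In the same order 15, 18 and 17 were higher, against 13.8%, 14.1% and 13.8% of all features. These 3 readings share the cold libraries and most of their features. The controls not used for the choice are of the same condition, so the choice can still favour falls. All 3 cold libraries lay below all 3 controls for 133 of the 167 features (28.2% of all tested features) and above them for 19 (21.9% of all tested features).

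The median log2 fold change of the 167 was -0.54, with quartiles of -1.05 and -0.20. Over all tested features the median was -0.13, so the 167 lay 0.41 below it. A fall of at least 1 on the log2 scale was called for 50 of them (13.7% of all tested features) and a fall of at least 2 for 17 (3.5%). A rise of at least 1 was called for 4 (10.6% of all tested features), and the largest was 1.31. The direction of 10 of the 131 falls turned under at least 1 of 3 other scalings of the libraries, and 100 were called lower under all 3. None of the 17 rises turned, and 13 were called higher under all 3. Without limma's mean-variance trend, 7 were higher and 99 lower, and the share of all features called in that fit is not given here.

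**Figure D2:**
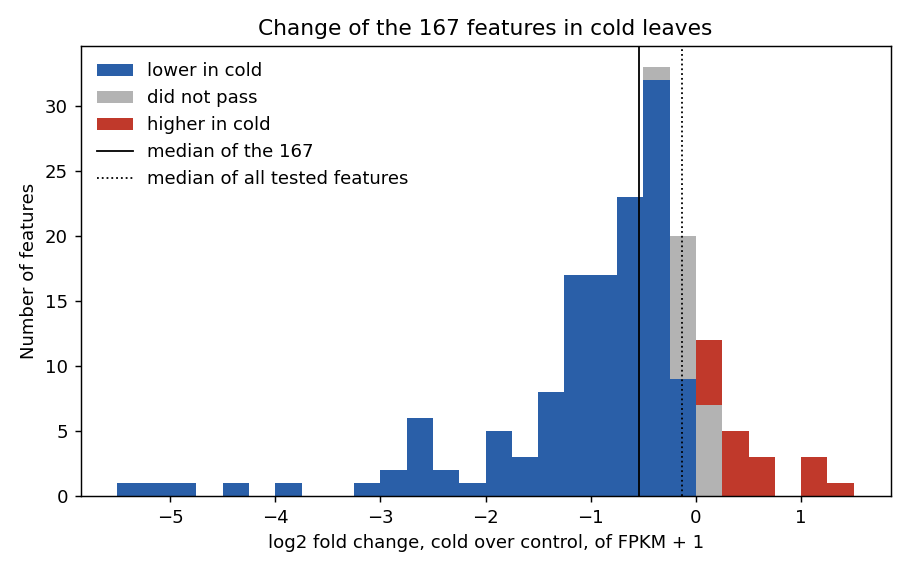
Number of the 167 features by log2 fold change of FPKM + 1 (cold over control, bins of 0.25), coloured by the limma call. The solid line is their median (-0.54) and the dotted line the median of all tested features (-0.13); the long tail on the left reaches -5.34 and the right side ends at 1.31.

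The 17 features at 10000 FPKM or more stood at the top of the control leaf and took 10.4% ± 0.103 of the FPKM total there and 7.32% ± 0.0806 in cold leaves (SD, n = 3 each). The most abundant had 24122, 27545 and 25181 FPKM in controls 1 to 3 and 17906, 17110 and 17559 FPKM in cold 1 to 3. The second had 22584, 24311 and 23817 FPKM in control and 16245, 15636 and 16519 FPKM in cold libraries. For both features the groups stood apart and the cold mean was 0.684 times the control mean.

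The features ranked 4 and 6 in control behaved alike in size. The former had 21055, 19675 and 20447 FPKM in control and 13944, 14260 and 14121 FPKM in cold libraries, and its cold mean was 0.692 times the control mean. The latter had 18803, 18839 and 19163 FPKM in control and 13130, 12780 and 13300 FPKM in cold libraries, a ratio of 0.690. Of the 17 features, 10 had a log2 fold change between -0.6 and -0.3, compared with 42 of all 167. The quartiles of the 17 were -0.55 and -0.38, a narrower band than that of the 167. The features ranked 1, 2, 4 and 6 were called lower under all 3 other scalings, with changes that came no closer to 0 than -0.42, -0.19, -0.18 and -0.17. Under quantile normalization the feature ranked 5 went from -0.38 to 0.01, and the one ranked 9 from -0.43 to -0.03. The features ranked 12, 14 and 16 also turned, reaching 0.17, 0.04 and 0.16 over the scalings. Those ranked 8, 9, 10, 11 and 15 were called lower under 2 of the 3.

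A few of the 17 fell much further. The feature ranked 13 in control had 11706, 11613 and 13274 FPKM in control libraries and 1988, 2050 and 1938 FPKM in cold libraries. The log2 change came to -2.61 ± 0.054 (SE; adjusted p = 3.61e-06 in limma), and the feature went from rank 13 to rank 77. The feature ranked 17 had 10870, 10784 and 11387 FPKM in control and 3168, 3051 and 3080 FPKM in cold libraries, a change of -1.83 ± 0.025 (SE; limma adjusted p = 1.26e-06). The feature ranked 3 had 19486, 22522 and 20333 FPKM in control and 10364, 9164 and 8351 FPKM in cold libraries, a change of -1.16 ± 0.089 (SE; limma adjusted p = 0.000276). In each of them the highest cold library was below the lowest control. Over the scalings tried, their changes stayed between -2.61 and -2.37, between -1.83 and -1.37, and between -1.16 and -0.79.

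The feature ranked 7 in control was the exception at the top. It had 15134, 17188 and 16078 FPKM in control and 16979, 16317 and 16609 FPKM in cold libraries, so that the groups overlapped. Its change on the log2 scale was 0.05 ± 0.045 (SE; limma adjusted p = 0.46), with 0.05 to 0.41 over the scalings. It ranked 3 in cold leaves. Of the 10 highest features of the control leaf, 8 were also among the 10 highest of the cold leaf; those ranked 3 and 10 went to ranks 15 and 11.

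**Figure D3:**
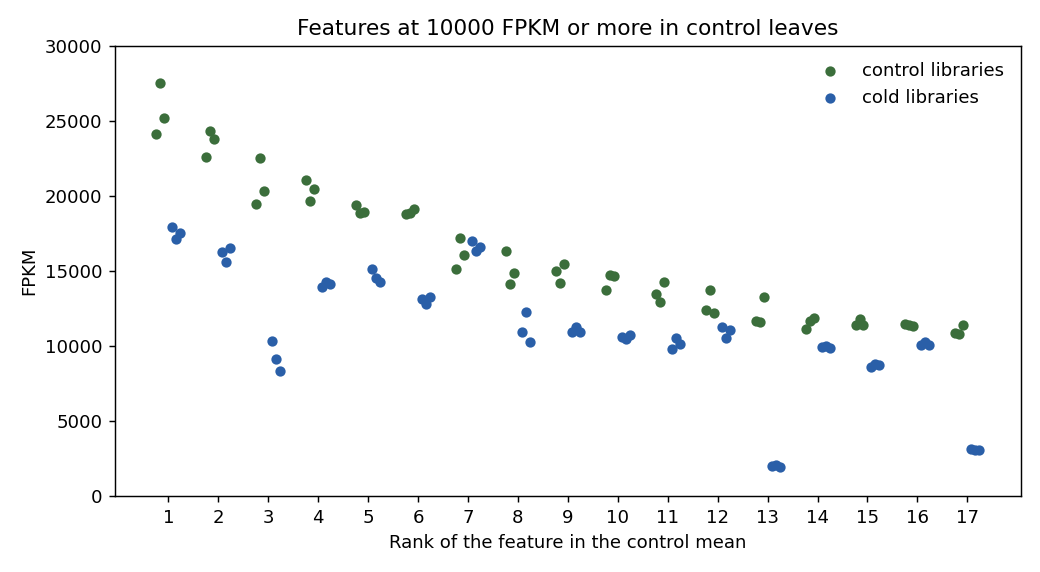
FPKM (linear axis from 0) of the 17 features at 10000 FPKM or more in the control mean, by their control rank; each point is 1 library, green for control and blue for cold. The features ranked 13 and 17 drop to means of 1992 and 3100 FPKM, and the one ranked 7 is the single feature whose groups overlap.

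By abundance class, falls outnumbered rises throughout. The choice on control values favours falls in every class, so the counts are a description. Of all tested features 19.8% were lower and 15.8% higher. From 1000 to under 2000 FPKM in control, 56 of 78 features were lower and 12 higher, with a median log2 fold change of -0.49. The 12 rises made up 15.4% of that class, near the share of all tested features. From 2000 to under 5000 FPKM the numbers were 49 and 4 of 59, with a median of -0.73. From 5000 to under 10000 FPKM they were 10 and 1 of 13, with a median of -0.67. At 10000 FPKM or more 16 of 17 were lower and none higher, with a median of -0.43. This last count depended on scaling, as the features ranked 5, 12, 14 and 16 turned under at least 1 other scaling. Across the 167 features Spearman's rho between the control level and the log2 fold change was -0.09, a description over features that share the same 6 libraries. The spread was small in all classes: the median coefficient of variation was 4.52% among control and 2.86% among cold libraries. The largest in control leaves, 27.8%, belonged to the feature ranked 30, which had 4295, 6784 and 4326 FPKM in controls 1 to 3, control 2 standing apart. In cold leaves that feature had 3889, 3822 and 3867 FPKM, and it did not pass (limma adjusted p = 0.145).

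The 5 largest falls came from features with control means of 1015 to 2243 FPKM. Cluster-2961.147546 had 876, 1123 and 1047 FPKM in controls 1 to 3 and 34.2, 45.8 and 8.48 FPKM in cold 1 to 3. The change was -5.34 ± 0.58 on the log2 scale (SE; limma adjusted p = 0.0011), its mean fell 34.4-fold, and its rank went from 166 to 12116. Without cold replicate 3 the change was -4.64. It sat just above the limit, with control 1 under 1000 FPKM, and its cold libraries spread the most of all 167, at a coefficient of variation of 64.7%. Cluster-2961.147301 had 1278, 1356 and 1379 FPKM in control and 35.1, 32.5 and 50.1 FPKM in cold libraries. The change was -5.08 ± 0.158 on the log2 scale (SE; limma adjusted p = 1.13e-05), and the mean fell 34.1-fold. These 2 were the largest falls among 131 that were called without overlap. Neither was listed at 0 in any library, and all 167 features were above 0 in every library.

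Large falls also occurred further up the control order. The feature ranked 41 in control had 4245, 4170 and 4363 FPKM there and 578, 611 and 569 FPKM in cold libraries, with a change of -2.86 ± 0.032 (SE; limma adjusted p = 1.05e-06). The feature ranked 78, itself one of the 5 largest falls, had 2115, 2290 and 2324 FPKM in control and 117, 107 and 111 FPKM in cold libraries. Its change was -4.32 ± 0.05 (SE, limma adjusted p = 1.05e-06). In both, the cold libraries lay far below every control. The feature ranked 21 had 7267, 7569 and 7952 FPKM in control and 2082, 1835 and 1756 FPKM in cold libraries, a 4.02-fold lower mean. Of the 167, 17 ended under 500 FPKM in the cold mean and 4 under 100 FPKM.

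Rises were few and moderate. The 17 higher features together went from 1.26% ± 0.0188 to 1.84% ± 0.00588 of the FPKM total, and the 131 lower ones from 21.3% ± 0.317 to 13.0% ± 0.148 (SD, n = 3 each). Both sets were formed on these same libraries, so the shares describe them and test nothing. None of the 17 was among the first 28 features of the control leaf; the most abundant was the one ranked 29, with 5665, 5105 and 5310 FPKM in control and 6308, 6771 and 6699 FPKM in cold libraries. Cluster-2961.142443 had 967, 1297 and 895 FPKM in control and 2838, 2373 and 2556 FPKM in cold libraries, with no overlap. Its change of 1.31 ± 0.145 on the log2 scale (SE; limma adjusted p = 0.00118) was the largest of the 17 rises. Cluster-2961.172525 had 1220, 1327 and 1298 FPKM in control and 2952, 2837 and 2794 FPKM in cold libraries. Its change was 1.16 ± 0.037 (SE; limma adjusted p = 1.26e-05). The feature ranked 82 rose from 2296, 2067 and 2066 FPKM to 4315, 4461 and 4482 FPKM, and its rank went from 82 to 25. The feature ranked 52 rose from 3394, 3431 and 3436 FPKM to 5218, 5175 and 5085 FPKM, and reached rank 21.

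The 19 features that did not pass ranged from rank 7 to rank 164 in control. Their cold mean was 0.752 to 1.07 times the control mean, and for 17 of them it lay within 10% of it. Together they took 2.37% ± 0.085 of the FPKM total in control and 2.36% ± 0.0171 in cold leaves (SD, n = 3 each). The 19 were set apart on these same libraries for lacking a call, so near-equal means and shares follow in part from the choice. The groups overlapped in 15 of them. A steady example was the feature ranked 32, with 4684, 4597 and 5004 FPKM in control and 4672, 4804 and 4748 FPKM in cold libraries (limma adjusted p = 0.918). Under the 3 other scalings this feature turned from -0.01 to as much as 0.46, so its constancy holds for the deposited values only. Others of the 19 moved too, such as the features ranked 7 (0.05 to 0.41) and 162 (-0.31 to -0.03).

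The list of features at 1000 FPKM or more turned over in part. In the cold mean 196 features reached that level, and 116 were among the 167, which is 69.5% of the control list and 59.2% of the cold list. The 51 that dropped under 1000 FPKM took 3.02% ± 0.0783 of the FPKM total in control and 1.16% ± 0.0198 in cold leaves. The 116 that stayed went from 22.0% ± 0.271 to 16.1% ± 0.144. The share of all 167 fell by 7.77 percentage points, and that of the 116 that stayed fell by 5.91 of these. The 80 features that reached 1000 FPKM in cold leaves alone went from 1.24% ± 0.0375 to 7.22% ± 0.294 (SD, n = 3 each). Of that, 0.0240% and 2.00% belonged to a single feature, which had 695, 616 and 585 FPKM in control and 43625, 53546 and 58305 FPKM in cold libraries. Without it the other newcomers went from 1.22% to 5.22%. The 80 had a median of 358 FPKM in control, 28 of them had 500 to under 1000 FPKM there, and 16 had under 100 FPKM. The 51, the 116 and the 80 were sorted on these same libraries. The fall of the 51 and the rise of the 80 therefore followed from the choice and test nothing.

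**Figure D4:**
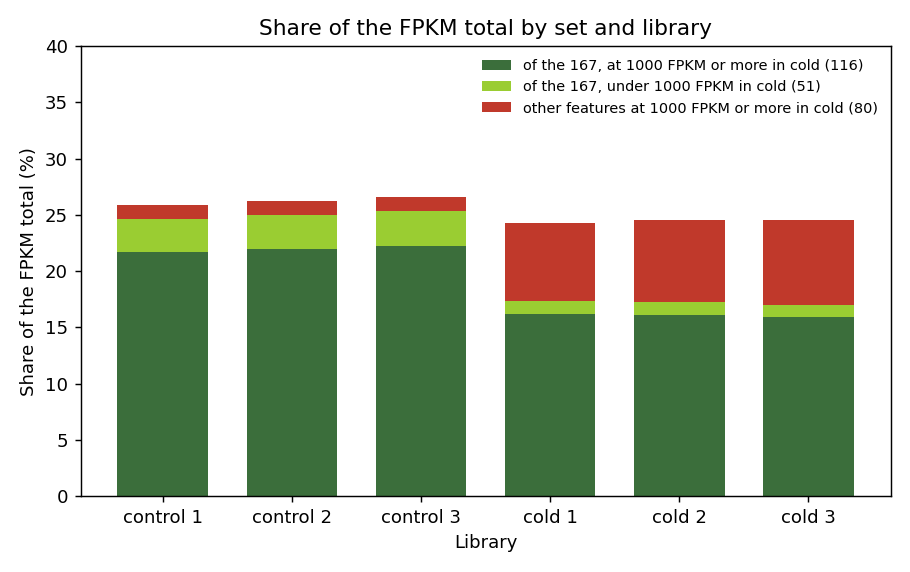
Stacked bars (from 0) of the share of the FPKM total in each library: the 116 of the 167 features that stayed at 1000 FPKM or more in cold (dark green), the 51 that did not (light green) and the 80 other features that reached it in cold (red). The green part takes 24.7% to 25.3% of each control library but 17.0% to 17.4% of each cold library. The red part grows, as its features were chosen for being under the limit in control and not under it in cold.

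In order of rank, 127 of the 167 features had a worse rank in cold than in control leaves, 32 a better one and 8 the same. Of the 131 lower features, 6 still had a better rank. In the cold mean 107 of the 167 remained within the first 167 ranks, and 10 were beyond rank 1000. Spearman's rho between control and cold means was 0.76 over the 167 features, and 0.52 over the 10 highest. Both are descriptions of features that share the same libraries.

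The top of the distribution was also counted in each library by itself, without the list. Features at 1000 FPKM or more numbered 164, 171 and 172 in controls 1 to 3 and 196, 195 and 199 in cold 1 to 3. At 2000 FPKM or more the order was the opposite, with 88, 88 and 91 features in control and 79, 78 and 77 in cold libraries. At 500 FPKM or more there were 403, 418 and 422 in control and 494, 488 and 488 in cold libraries. In all 3 counts the groups did not overlap, and each exact permutation test (two-sided) came to p = 0.1, which is the lowest that a comparison of 3 with 3 allows. With median of ratios scaling the cold excess at 1000 FPKM went from 27.7 to 46.0 features. At 2000 FPKM that scaling gave 81 to 88 features in control and 80 to 86 in cold libraries, so the groups then overlapped (exact permutation p = 0.8). To hold 25% of the FPKM total took 168 ± 8.54 features in a control library and 245 ± 4.16 in a cold one (SD, n = 3 each; exact permutation p = 0.1, no overlap). To hold 50% took 2656 ± 95.5 and 2566 ± 18.6, and the groups overlapped (exact permutation p = 0.3).

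The set was compared with its nearest neighbours in abundance, the 248 features at 500 to under 1000 FPKM in control. Of these, 153 were lower and 44 higher in cold leaves, with a median log2 fold change of -0.32. Lower features made up 78.4% of the 167 and 61.7% of these 248, a difference that was not tested. Higher features made up 10.2% and 17.7%. Of all tested features 19.8% were lower and 15.8% higher. When chosen on the cold libraries, the 196 features at 1000 FPKM or more had 82 lower (41.8%) and 97 higher (49.5%) members and a median of 0.09. The balance of directions in a list of abundant features therefore differed with the group that chose it. A choice on either group favours features high in that group, and how much this contributed was not tested. At the limit itself, the last 3 features inside had control means of 1006, 1015 and 1016 FPKM and cold means of 512, 29.5 and 1273 FPKM. The first 3 outside had control means of 994, 991 and 990 FPKM and cold means of 528, 1407 and 955 FPKM.

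The 167 features shared a place in the authors' numbering, which the rule did not use. Each name holds a first number, read here as that of a component, and a second number within it. All 167 belonged to component 2961, which holds 299531 features, or 81.9% of the table. None of the 66138 features of other components exceeded 60.2 FPKM in the control mean. This was not particular to the 167, as all 3276 features at 100 FPKM or more in the control mean lay in component 2961. Within the component the numbers run from 0 to 299530, and those of the 167 had a median of 147951, with quartiles of 147145 and 148544. A window from 146000 to under 150000, set after the values were seen, holds 1.34% of the component and 130 of the 167 features (77.8%). The median feature in this window had 14.2 FPKM in control and 11.1 FPKM in cold leaves, against 0.863 and 0.733 FPKM in the rest of the component. The window also holds many weak features, 45.2% of it being under 10 FPKM in control. Of the 196 features at 1000 FPKM or more in the cold mean, 109 (55.6%) lay in the window. Of the 80 features that reached 1000 FPKM in cold leaves alone, 22 (27.5%) lay in it. The sources used here do not say what the numbering stands for.

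**Figure D5:**
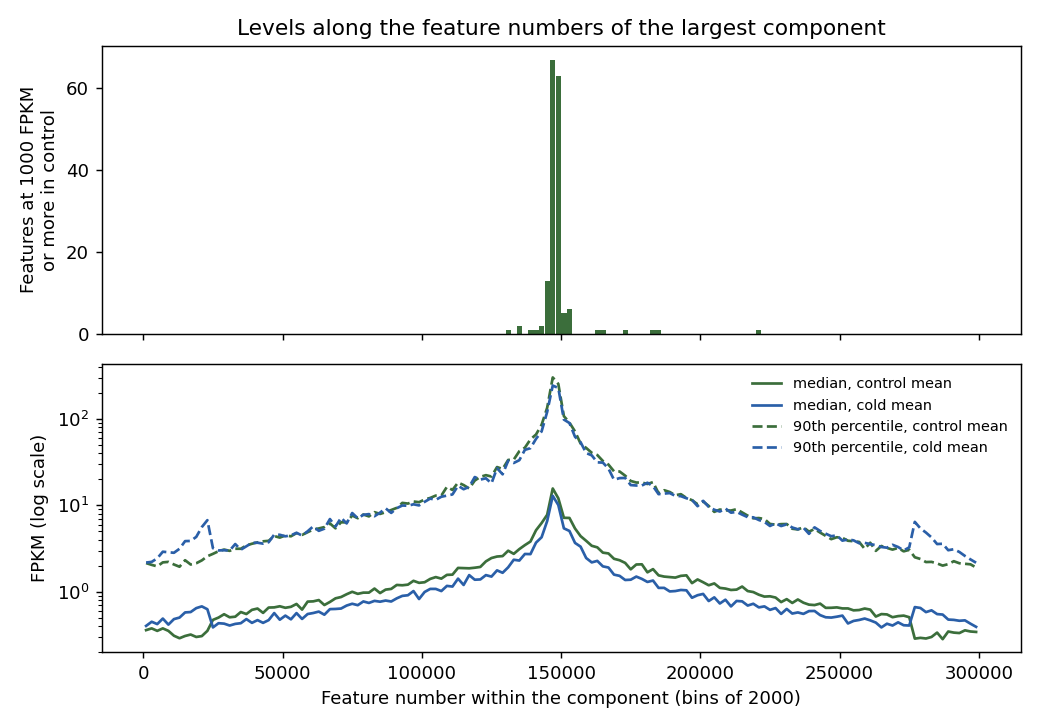
Top, number of the 167 features in bins of 2000 consecutive feature numbers of the largest component; bottom, median (solid) and 90th percentile (dashed) of FPKM per bin on a log axis, green for the control mean and blue for the cold mean. Levels peak in the middle of the numbering, where the bins starting at 146000 and 148000 hold 67 and 63 of the 167 features.

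Neighbours in the numbering were described by their pairs. There were 12 pairs of the 167 with consecutive numbers, made of 23 features. In 11 pairs both members were called, and in 10 of those both were lower. In 5 pairs the log2 fold changes differed by at most 0.1, as for the features ranked 107 and 68, at -2.45 and -2.44, and for the most abundant feature of all and the one ranked 109, both at -0.55. In 3 pairs they differed by 1 or more. Over all 13861 pairs that the 167 features can form, both members were called in 78.5% and both were lower in 61.4%, while the changes differed by at most 0.1 in 8.26% and by 1 or more in 36.7%. For the 12 pairs these shares were 91.7%, 83.3%, 41.7% and 25.0%, and the difference was not tested. The widest gap, 2.91, was between the feature ranked 69, which went from a mean of 2699 to 476 FPKM, and the one ranked 91, which went from 1906 to 2521 FPKM. The largest rise and the steep fall at rank 13 were only 2 numbers apart. Cluster-2961.142443 went from 1053 ± 214 to 2589 ± 234 FPKM, and the feature ranked 13 from 12198 ± 933 to 1992 ± 55.9 FPKM (SD, n = 3 each). Their sum went from 13251 to 4581 FPKM. The other features within 2 numbers of Cluster-2961.142443 went from 625 to 472, from 66.5 to 57.1 and from 1.4 to 0.503 FPKM. This closeness was picked out after the values were seen, and a relation between the features was not tested.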

How the data were processed

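The authors deposited 1 table of FPKM values, rounded to 2 decimals, with 6 library columns that match the sample titles. Trizol extraction and a TruSeq library kit were used, per the labels' protocols. Bowtie2 2.0.6 and TopHat2 2.0.12 appear in the submitters' processing notes, with no role. The sources used here do not give the reference, the counting program or how features were built. The Iso-Seq library was not analysed here.

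The deposited FPKM values were not rescaled. Features averaging at least 1 FPKM over the 6 libraries (153984) were compared as log2(FPKM + 1) with limma 3.58.1 in R 4.3.3 (trend, two-sided, Benjamini-Hochberg over all tested features, threshold 0.05); this scale understates changes of low features. The method was tested on simulated data. Ranks, shares and exact permutation tests used Python 3.11.15 and scipy 1.17.1. Features named by number were the 2 largest called rises and the 2 largest called falls without overlap among the 167; others are given by rank, and the choice of those beyond the 10 highest was made after seeing their values. The 167 features, lists and tests were chosen with earlier results of these data known. No gene list was applied, since the features carry no names. Relative depth came from the commonest ratio of values of at least 1 FPKM in features above 0 in exactly 2 libraries. That ratio was held by 81 to 297 of 267 to 604 features each, such as 118 of 602 for control 2, so the depths are rough. Alternatives covered pseudocount, filter, scaling, limma settings, the replicate number as a block, left-out libraries and the limit of the list.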

Additional observations from a re-analysis of the deposited data

How the results depend on the processing

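The median log2 fold change of the 167 features (-0.54) was negative under all settings tried. It was -0.41 with median of ratios scaling, -0.48 with quantile normalization, -0.42 at a limit of 500 FPKM and -0.57 when features were chosen on control 1 and compared with the other controls. The 17 higher and 131 lower features became 7 and 99 without the mean-variance trend, 4 and 50 with a log2 change of at least 1, 61 and 284 of 415 at a limit of 500 FPKM, and 5 and 75 of 89 at 2000 FPKM. For a log2 change of at least 1, 10.6% of all tested features were higher and 13.7% lower. At both limits the shares were those of the main fit, 15.8% and 19.8%. The shares without the trend, with the replicate block or with a cold library left out are not given here. With the replicate block 15 features were higher and 125 lower. Same-numbered libraries deviated from their group means with r of -0.0118 to -0.0022. No shared deviation by number was seen, which cannot show whether the libraries were prepared in pairs. Shares in control and cold were 31.4% and 25.0% at 500 FPKM, 20.9% and 14.2% at 2000 FPKM, 24.6% and 16.9% with 1000 FPKM in every control, and 23.5% and 18.9% with quantile normalization. With the most abundant cold feature left out of the total, a setting chosen after seeing the data, the cold share was 17.6%. The cold excess of features at 1000 FPKM or more (27.7) was 46.0 with median of ratios scaling. It turned to -11.0 at 2000 FPKM as deposited and, in settings chosen after seeing the data, to -1.0 there with median of ratios scaling and -9.33 with equal sums. The excess needed for 25% of the total (77.3) turned to -89.3 for 50%; the cause was not tested. Quantile normalization gives every library the same number of features above a limit, so it has no value there. With each library left out in turn there were 14 to 17 higher and 123 to 130 lower features, medians of -0.56 to -0.53, shares of 24.8% to 25.1% (control) and 17.1% to 17.3% (cold), 115 to 117 features kept at 1000 FPKM, and excesses of 25.2 to 29.2 and 72.8 to 81.3. The 4 features named by number kept direction and call in all 16 settings each, with the highest adjusted p at 0.0106 (limma). FPKM alone give no depth, so counting error was not estimated.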

Other observations

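At both ends of the numbering of the largest component the order of the conditions was the opposite of that in the middle. In all 24 bins of 2000 numbers under 24000 or from 276000 on, the median feature was higher in the cold than in the control mean, and in all 126 bins between them it was lower. The limits were set after the values were seen. These end numbers cover 47531 features with a median of 0.327 FPKM in control and 0.517 FPKM in cold leaves. Both medians lie under the mean of 1 FPKM that the limma fit required, and the difference was not tested. They hold none of the 167 features and 4 of the 80 that reached 1000 FPKM in cold leaves alone. They took 1.62% ± 0.0298 of the FPKM total of control libraries and 3.85% ± 0.00358 of that of cold libraries (SD, n = 3 each).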
